A study of Homo sapiens with 6 samples.

Results

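The genes described here are 58 mitosis and spindle genes, compared between the KM12SM and SW620 colorectal cancer cell lines. They were taken by symbol from a list of genes of mitotic entry, spindle, kinetochore and chromosome separation, and each matched 1 probe set by its annotated symbol, so that 58 of 58 were measured among 17687 named genes. Total RNA of untreated cells grown in serum-containing medium was hybridised to Clariom S human arrays, with 3 arrays of KM12SM and 3 of SW620. KM12SM is a liver-metastatic derivative of the KM12 colon carcinoma line, and SW620 was established from a lymph node metastasis. Each line is 1 established cell line, with its own genetic background, so line and any other difference between the cultures cannot be told apart. The replicates are called independent RNA replicates in the study's methods, and no source used here names separate cultures. The p-values therefore reflect how far these arrays of a line lay apart, with the spread of each gene drawn towards that of all probe sets. That spread may be only technical.

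The values are log2 signals, normalised and summarised per gene by the authors, and differences are given on that log2 scale as KM12SM minus SW620. A gene was called higher or lower in KM12SM at a Benjamini-Hochberg adjusted p under 0.05 from limma over all 21448 probe sets. Arrays correlated with a Pearson r of 0.981 to 0.992 within a line and of 0.919 to 0.926 between the lines, over all probe sets. Their medians were 6.75 to 6.78 in KM12SM and 6.71 to 6.74 in SW620. Among markers of the labelled tissue, EPCAM averaged 11.92 in KM12SM and 11.74 in SW620 (log2 signal), whereas CDH1 averaged 9.25 in KM12SM and 5.55 in SW620. Of 10 measured colorectal epithelial markers 6 were higher and 1 lower in KM12SM. The defining leukocyte marker PTPRC averaged 3.93 in KM12SM and 3.90 in SW620, under the 25th percentile of probe set means, 5.12. Of 5 measured leukocyte markers CD68 and LYZ were higher in KM12SM, and their part in the results was not tested.

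Cells enter mitosis when CDK1, bound to cyclin A or B, is freed of its inhibitory phosphates by CDC25 phosphatases. Aurora and Polo kinases then build the spindle, kinetochores attach chromosomes to microtubules, and the spindle assembly checkpoint holds the cell until attachment is complete. The anaphase-promoting complex with CDC20 afterwards marks securin and cyclin B for destruction, so that separase cuts cohesin and the chromosomes part. Most genes of this programme are transcribed mainly in G2 and mitosis, and they are regulated by FOXM1, B-MYB and the DREAM complex. Their mRNA is widely read as a sign of proliferation in colorectal tumours. RNA was taken from whole cultures, so fewer cells in G2 or mitosis and less RNA per such cell cannot be told apart.

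Most mitosis and spindle genes were not called between the lines, and those that were called were mainly lower in KM12SM. Of the 58 genes 11 were lower in KM12SM, 2 were higher and 45 were not called. The called share was 22.4%, close to the 25% of all probe sets called. By role it ran from 0% to 33.3%, in groups of 1 to 9 genes. Lower calls made up 19.0% of the 58 genes, against 12.4% of all probe sets, and higher calls made up 3.45%, against 12.6% of all probe sets. The lower genes were CDC25B, BIRC5, CDK1, DLGAP5, KIF18A, NCAPD2, CENPA, KIF20B, AURKA, BUB1 and TACC3, and the higher genes were CENPE and ECT2. The median difference of the 58 genes was -0.11 and that of all probe sets was 0.01. The median size of the difference, regardless of direction, was 0.27 for the 58 genes and 0.26 for all probe sets. Large differences were few, since 2 of the 58 genes (3.45%) were called with at least a 2-fold difference, against 10.5% of all probe sets. Without KM12SM replicate 1 or SW620 replicate 3 the 2 higher calls became 0, and without SW620 replicate 1 they became 1.

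**Figure D1:**
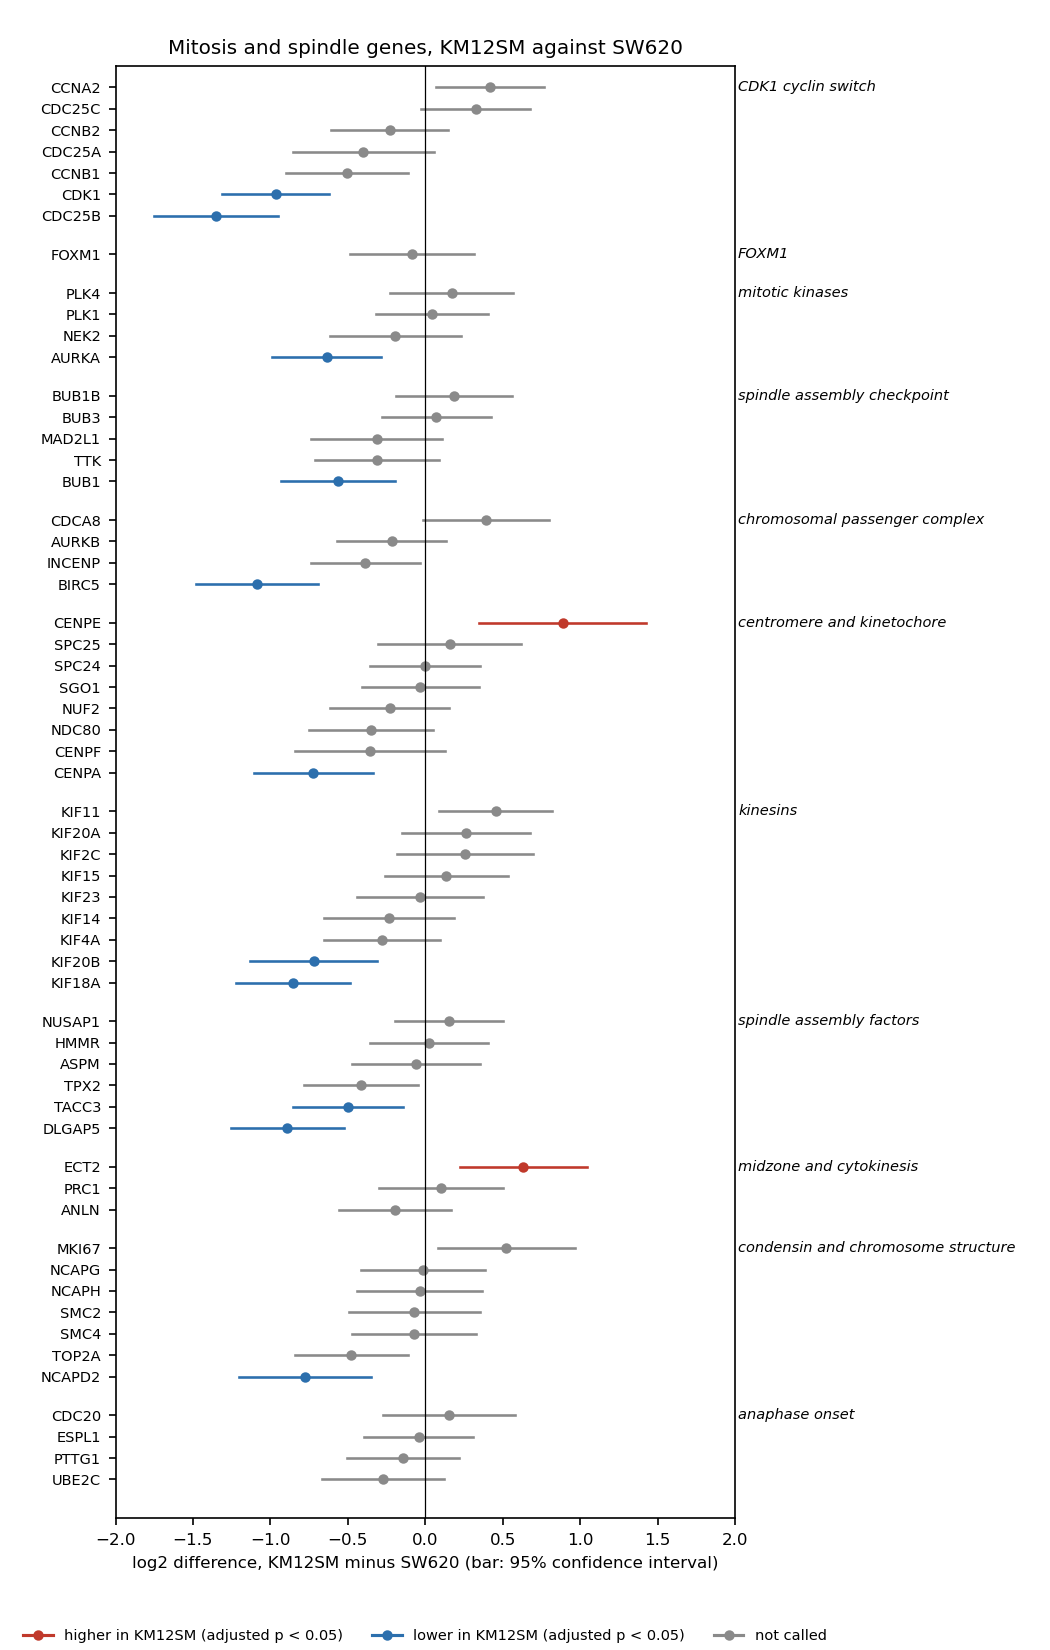
Log2 difference of each of the 58 genes (KM12SM minus SW620, horizontal axis) by role, with the 95% confidence interval from limma as a bar and 3 arrays per line. The 11 lower genes lie left of 0, CENPE and ECT2 lie right of it, and the differences run from -1.35 for CDC25B to 0.89 for CENPE.

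Of the 45 genes not called, all had differences between -0.51 (CCNB1) and 0.52 (MKI67). Their 95% confidence intervals reached from -0.90 at the lowest to 0.97 at the highest, so that the interval of each of the 45 lay within 2-fold in either direction. Every array of a line lay to 1 side of every array of the other for 22 of the 58 genes (37.9%), with KM12SM below SW620 for 16 and above it for 6. Over all probe sets the share without overlap was 37.7%, made up of 18.6% with KM12SM below and 19.1% with KM12SM above. Of these 22 genes 9 were not called.

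**Figure D2:**
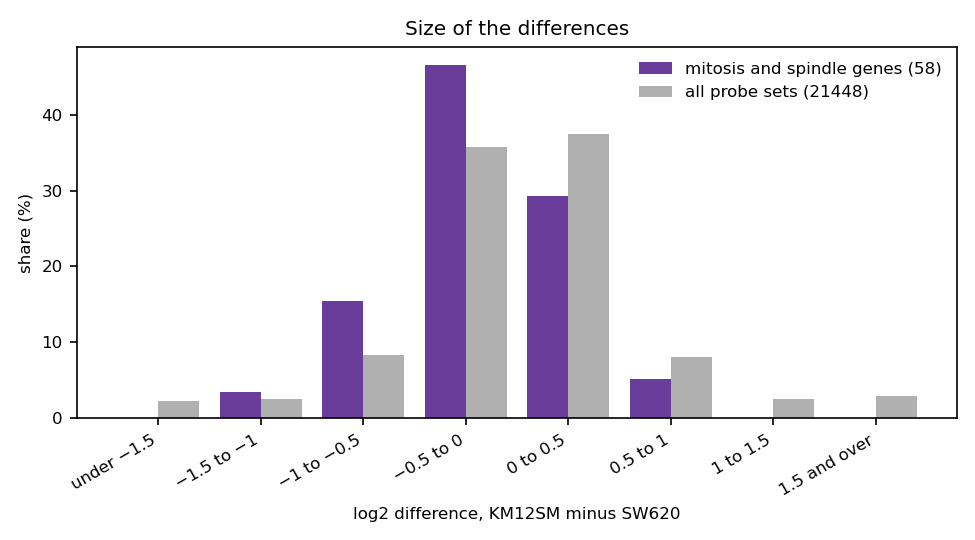
Share of the 58 mitosis and spindle genes and of all 21448 probe sets (vertical axis, percent) in steps of 0.5 of the log2 difference, KM12SM minus SW620 (horizontal axis). The steps between -0.5 and 0.5 held 46.6% and 29.3% of the 58 genes, and 0 of the genes lay under -1.5 or at 1 and over.

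The promoters of these genes often held the letters of CHR elements and CCAAT boxes. CHR elements, which the DREAM and B-MYB complexes contact, have the core TTTGAA or its variants TTTAAA and TTCGAA, and NF-Y binds CCAAT. The letters were searched on both strands of the 300 bases from 250 before to 50 after the gene start in RefSeq (GRCh38.p14), with overlapping matches counted each. Promoters were matched for 51 of the 58 genes and for 14250 genes with an annotated probe set. TTTGAA was present in 35 of the 51 (68.6%), against 12.0% of the 14250, and CCAAT in 37 (72.5%), against 36.4%. Any of the 3 CHR forms was present in 43 of the 51 promoters (84.3%), against 20.3% of the 14250. By call, a CHR form was found in 7 of 9 promoters of lower genes, in both of the 2 promoters of higher genes and in 34 of 40 promoters of genes not called. A match is a description of letters and not of a bound site. The sequences below are the promoters of the called genes with the largest differences that were matched, CDC25B, CDK1, DLGAP5 and KIF18A among the lower ones and CENPE and ECT2 among the higher ones. That of CCNB2, which was not called, is added because it holds both a CHR core and several CCAAT boxes. The windows are chr20:3786701-3787000 on the plus strand, chr10:60778081-60778380 on the plus strand, chr14:55191536-55191835 on the minus strand, chr11:28108107-28108406 on the minus strand, chr4:103198294-103198593 on the minus strand, chr3:172750476-172750775 on the plus strand and chr15:59104896-59105195 on the plus strand, each printed 5′ to 3′ on the strand of the gene with the searched letters in capitals.
CDC25B: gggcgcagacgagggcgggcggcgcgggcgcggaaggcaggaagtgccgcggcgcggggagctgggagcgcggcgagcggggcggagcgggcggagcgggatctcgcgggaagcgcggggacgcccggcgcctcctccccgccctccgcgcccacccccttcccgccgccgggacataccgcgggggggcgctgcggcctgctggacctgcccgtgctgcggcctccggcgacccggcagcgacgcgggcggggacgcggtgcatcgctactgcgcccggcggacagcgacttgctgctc
CDK1: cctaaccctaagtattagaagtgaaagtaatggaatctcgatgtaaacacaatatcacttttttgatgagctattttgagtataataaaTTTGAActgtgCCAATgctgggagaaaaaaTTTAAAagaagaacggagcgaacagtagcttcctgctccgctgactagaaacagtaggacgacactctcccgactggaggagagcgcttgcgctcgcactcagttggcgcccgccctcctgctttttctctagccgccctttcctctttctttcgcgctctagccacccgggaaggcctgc
DLGAP5: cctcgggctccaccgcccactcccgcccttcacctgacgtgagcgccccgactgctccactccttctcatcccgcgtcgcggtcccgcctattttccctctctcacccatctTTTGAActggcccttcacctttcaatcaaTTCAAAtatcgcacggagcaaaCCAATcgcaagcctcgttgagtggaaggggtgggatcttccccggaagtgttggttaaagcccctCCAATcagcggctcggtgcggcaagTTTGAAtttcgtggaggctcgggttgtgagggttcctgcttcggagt
KIF18A: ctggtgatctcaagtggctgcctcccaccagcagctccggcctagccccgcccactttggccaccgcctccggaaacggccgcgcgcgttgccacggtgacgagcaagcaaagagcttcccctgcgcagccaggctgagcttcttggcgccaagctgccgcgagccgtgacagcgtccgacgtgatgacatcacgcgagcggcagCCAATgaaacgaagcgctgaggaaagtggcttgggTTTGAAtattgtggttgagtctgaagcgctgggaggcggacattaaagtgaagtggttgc
CENPE: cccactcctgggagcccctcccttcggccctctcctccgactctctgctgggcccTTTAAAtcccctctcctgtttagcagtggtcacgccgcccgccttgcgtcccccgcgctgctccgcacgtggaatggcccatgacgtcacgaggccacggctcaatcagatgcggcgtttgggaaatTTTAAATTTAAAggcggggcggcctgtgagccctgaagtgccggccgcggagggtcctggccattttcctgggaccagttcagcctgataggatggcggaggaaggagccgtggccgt
ECT2: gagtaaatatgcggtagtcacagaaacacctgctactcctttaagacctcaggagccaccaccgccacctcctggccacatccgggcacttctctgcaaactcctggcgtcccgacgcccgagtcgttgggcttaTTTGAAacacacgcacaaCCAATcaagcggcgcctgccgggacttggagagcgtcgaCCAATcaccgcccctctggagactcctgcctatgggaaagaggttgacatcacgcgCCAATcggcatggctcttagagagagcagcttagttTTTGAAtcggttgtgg
CCNB2: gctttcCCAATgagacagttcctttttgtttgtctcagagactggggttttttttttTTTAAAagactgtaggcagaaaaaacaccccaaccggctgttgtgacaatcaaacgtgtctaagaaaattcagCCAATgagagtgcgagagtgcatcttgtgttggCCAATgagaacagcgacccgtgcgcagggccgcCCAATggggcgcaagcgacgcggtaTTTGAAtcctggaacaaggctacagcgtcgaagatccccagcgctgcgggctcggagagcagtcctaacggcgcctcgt

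The CDC25B window holds none of the searched letters. It overlaps the annotated span of the neighbouring gene CENPB, and windows at other starts of CDC25B were not searched. The windows of CDK1, KIF18A and DLGAP5, which were also lower, hold both TTTGAA and CCAAT. The 4 CCAAT boxes of CCNB2 begin at positions -244, -120, -87 and -54 from the gene start and its TTTGAA begins at -29. ECT2 has 3 CCAAT boxes and 2 copies of TTTGAA, and CENPE has 3 copies of TTTAAA, of which 2 abut.

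Among the genes that throw the CDK1 switch, CDC25B and CDK1 were lower in KM12SM and the cyclins and other CDC25 genes were not called. CDC25B, a phosphatase that activates CDK1 at the G2 to mitosis transition, had log2 signals of 8.88, 9.05 and 9.53 on the KM12SM arrays, against 10.50, 10.53 and 10.48 on the SW620 arrays. Replicate 3 was the highest of the KM12SM arrays, and every KM12SM array lay below every SW620 array. The log2 difference of CDC25B was -1.35 (standard error 0.19, adjusted p = 4.89e-05 from limma), a 2.55-fold lower level in KM12SM. CDK1, the kinase itself, had log2 signals of 9.21, 9.34 and 9.14 in KM12SM and of 10.23, 10.14 and 10.22 in SW620. The arrays of each line lay close together and those of the lines did not overlap. CDK1 averaged 9.23 ± 0.10 in KM12SM and 10.20 ± 0.05 in SW620 (SD, n = 3 each), a log2 difference of -0.97 (standard error 0.16, adjusted p = 0.000297 from limma) or 1.95-fold lower.

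None of the 3 cyclins was called, but CCNB1 was called under 7 of 14 alternatives and CCNA2 under 4. CCNA2, the cyclin A of S phase and G2, had a difference of 0.42 (adjusted p = 0.0784 from limma), with all KM12SM arrays above those of SW620. CCNB1, the main B cyclin, had a difference of -0.51 (adjusted p = 0.0586 from limma), with all KM12SM arrays below, and CCNB2 had -0.23 (adjusted p = 0.409 from limma). Without SW620 replicate 3 CCNB1 passed the threshold, with a difference of -0.66 and an adjusted p = 0.0168. CDC25A, which acts at G1 to S and in mitosis, and CDC25C, which acts at mitotic entry, had differences of -0.40 and 0.33 with 95% confidence intervals from -0.86 to 0.06 and from -0.03 to 0.68.

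FOXM1, the transcription factor that drives many of these genes, was not called. It had log2 signals of 9.33, 9.34 and 9.68 in KM12SM and of 9.54, 9.80 and 9.26 in SW620. The lines overlapped, with a difference of -0.08 and a 95% confidence interval from -0.48 to 0.32 (adjusted p = 0.808 from limma). Of 4 other mitotic kinases AURKA was lower and PLK1, PLK4 and NEK2 were not called. AURKA, the Aurora kinase of centrosomes and spindle poles, had log2 signals of 9.81 to 9.99 in KM12SM and of 10.41 to 10.64 in SW620, with no overlap. Its difference was -0.64 (standard error 0.17, adjusted p = 0.00947 from limma), and without SW620 replicate 1 the call was lost at an adjusted p = 0.0559. PLK1, the Polo kinase of mitotic entry and spindle assembly, had a difference of 0.04 with a 95% confidence interval from -0.32 to 0.41. NEK2, a kinase of centrosome separation, had log2 signals of 8.39, 8.44 and 8.95 in KM12SM and of 8.88, 8.98 and 8.50 in SW620. These overlapped, with KM12SM replicate 3 high and SW620 replicate 3 low (difference -0.19, adjusted p = 0.554 from limma). PLK4, which starts centriole duplication, had a difference of 0.17 (adjusted p = 0.581 from limma).

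Of 5 spindle assembly checkpoint genes BUB1 was lower and 4 were not called. BUB1, a kinase that brings checkpoint proteins and shugoshin to the centromere, had log2 signals of 8.31 to 8.41 in KM12SM and of 8.67 to 9.04 in SW620. The lines did not overlap, and the difference was -0.56 (standard error 0.17, adjusted p = 0.0240 from limma). The call of BUB1 was lost without KM12SM replicate 1 or 2 (adjusted p = 0.0605 and 0.0738) and without SW620 replicate 1 or 2 (adjusted p = 0.125 and 0.0829). MAD2L1, which in its closed form inhibits CDC20, had log2 signals of 8.05, 8.29 and 8.55 in KM12SM and of 8.94, 8.57 and 8.32 in SW620. The arrays of the lines overlapped, and the difference was -0.31 (adjusted p = 0.298 from limma). The checkpoint kinase TTK had the same difference of -0.31 (adjusted p = 0.270 from limma), and BUB1B and BUB3, which join MAD2 in the mitotic checkpoint complex, had 0.18 and 0.07.

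In the chromosomal passenger complex, which corrects faulty attachments and later directs cytokinesis, BIRC5 was lower. BIRC5 (survivin), the subunit that reads a centromeric histone mark, had log2 signals of 7.96, 8.41 and 7.85 in KM12SM and of 9.22, 9.23 and 9.03 in SW620. Every KM12SM array lay below every SW620 array. The difference was -1.09 (standard error 0.18, adjusted p = 0.000330 from limma), or 2.12-fold lower. Its kinase AURKB and the scaffold INCENP had -0.22 and -0.39, both without overlap between the lines and not called (adjusted p = 0.404 and 0.109 from limma). CDCA8 (borealin) had a difference of 0.39 (adjusted p = 0.159 from limma).

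Of 8 centromere and kinetochore genes CENPA was lower, CENPE was higher and 6 were not called. CENPA, the histone H3 variant that marks the centromere, had log2 signals of 7.38, 7.49 and 7.01 in KM12SM and of 8.14, 8.03 and 7.88 in SW620. The lines did not overlap, with a difference of -0.72 (standard error 0.18, adjusted p = 0.00688 from limma). CENPE, the kinetochore motor that carries chromosomes to the spindle equator, had log2 signals of 8.16, 7.88 and 7.99 in KM12SM and of 7.33, 7.65 and 6.39 in SW620. The lines did not overlap, but SW620 replicate 3 lay far below the other arrays, and the SD of CENPE in SW620 was 0.66, the widest of the 58 genes in that line. Its difference was 0.89 (standard error 0.25, adjusted p = 0.0170 from limma). It shrank to 0.52 without SW620 replicate 3, where the call was lost (adjusted p = 0.0515), as it was without KM12SM replicate 1 (adjusted p = 0.0599). The 4 subunits of the NDC80 complex, the main microtubule anchor of the kinetochore, were not called, with -0.35 for NDC80, -0.23 for NUF2, 0.00 for SPC24 and 0.16 for SPC25. SGO1, which shields centromeric cohesin, had -0.03. CENPF, a large protein of the outer kinetochore, had -0.36, which became -0.60 without SW620 replicate 3 and -0.15 without KM12SM replicate 2, and with replicate 3 of both lines left out it was called at -0.70 (adjusted p = 0.0360 from limma).

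Of 9 kinesins KIF18A and KIF20B were lower and 7 were not called. KIF18A, which damps chromosome movements at the spindle equator, had log2 signals of 8.38, 8.25 and 8.52 in KM12SM and of 9.27, 9.41 and 9.04 in SW620. The lines did not overlap, and the difference was -0.86 (standard error 0.17, adjusted p = 0.00147 from limma), or 1.81-fold lower. KIF20B, a kinesin of the late stages of cytokinesis, had log2 signals of 8.20 to 8.59 in KM12SM and of 8.84 to 9.46 in SW620, with a difference of -0.72 (standard error 0.19, adjusted p = 0.0112 from limma). Leaving out replicate 2 ended the call of KIF20B, in KM12SM at an adjusted p = 0.0595 and in SW620 at an adjusted p = 0.0606. KIF11, the motor that pushes spindle poles apart, had a difference of 0.46 with no overlap between the lines (adjusted p = 0.0649 from limma). The other 6 kinesins had differences from -0.28 for KIF4A, which works with PRC1 on the central spindle, to 0.26 for KIF20A, which moves the passenger complex there.

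Among 6 spindle assembly factors DLGAP5 and TACC3 were lower. DLGAP5 (HURP), which stabilises microtubules near chromosomes, had log2 signals of 8.65, 8.69 and 8.87 in KM12SM and of 9.59, 9.83 and 9.46 in SW620. The lines did not overlap, with a difference of -0.89 (standard error 0.17, adjusted p = 0.00103 from limma), or 1.85-fold lower. TACC3, which cross-links kinetochore microtubules, had log2 signals of 8.82 to 9.14 in KM12SM and of 9.44 to 9.53 in SW620. Its difference was -0.50 (standard error 0.17, adjusted p = 0.0382 from limma). The call was lost without KM12SM replicate 1 or 3 (adjusted p = 0.118 and 0.0963) and without SW620 replicate 1 or 2 (adjusted p = 0.148 and 0.0722). TPX2, the activator of AURKA, had a difference of -0.42 with no overlap between the lines (adjusted p = 0.0975 from limma) and passed without SW620 replicate 3 (difference -0.53, adjusted p = 0.0349). ASPM of the spindle poles, the microtubule-binding HMMR and NUSAP1 had -0.06, 0.03 and 0.15.

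**Figure D3:**
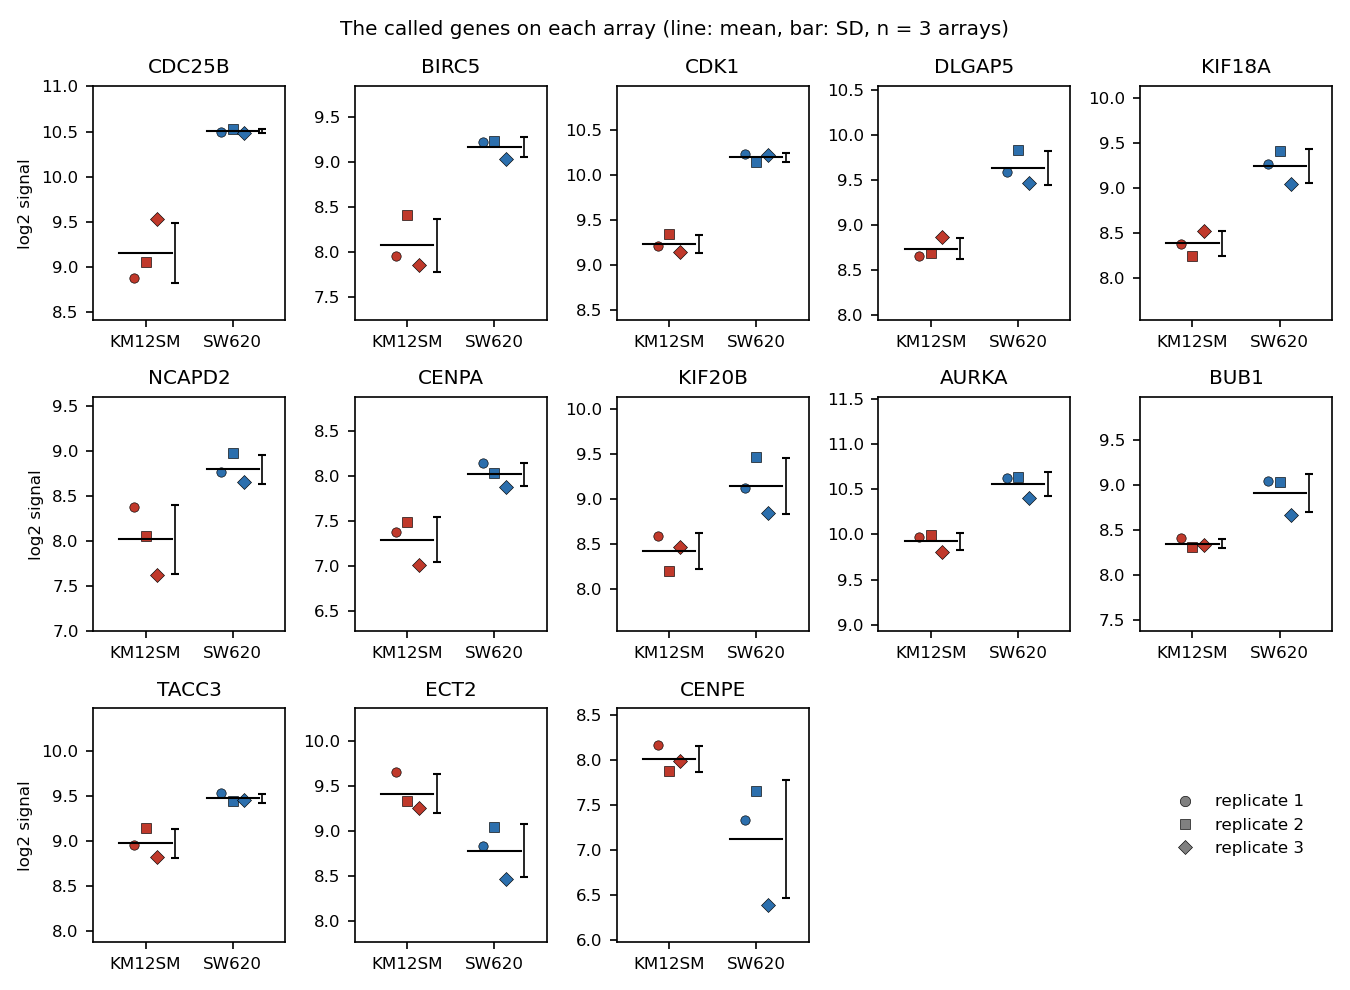
Log2 signal (vertical axis) of the 13 called genes on each array of KM12SM (left) and SW620 (right), with the mean as a line and the SD as a bar (n = 3 arrays each) and the replicate numbers as symbols; each vertical axis spans the same log2 range around its own gene. Every gene is separated between the lines, and CENPE has SW620 replicate 3 at 6.39, against 7.33 and 7.65 for the other SW620 arrays.

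Of the genes of cytokinesis ECT2 was higher. ECT2, the exchange factor that activates RhoA for the contractile ring, had log2 signals of 9.66, 9.33 and 9.26 in KM12SM and of 8.83, 9.05 and 8.47 in SW620. The lines did not overlap, with a difference of 0.63 (standard error 0.19, adjusted p = 0.0233 from limma), or 1.55-fold higher. The call was lost without KM12SM replicate 1 (adjusted p = 0.129) and without SW620 replicate 1 or 3 (adjusted p = 0.0569 and 0.0807). PRC1, which bundles the central spindle, and ANLN, which links the ring to the membrane, had 0.10 and -0.20 and were not called.

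Of the 7 genes of chromosome structure NCAPD2 was lower. NCAPD2, a HEAT-repeat subunit of condensin I, had log2 signals of 8.38, 8.05 and 7.62 in KM12SM and of 8.76, 8.97 and 8.65 in SW620. The KM12SM arrays were spread widely but all lay below those of SW620. The difference was -0.78 (standard error 0.20, adjusted p = 0.00890 from limma), or 1.71-fold lower. The other condensin I subunits SMC2, SMC4, NCAPG and NCAPH had differences between -0.07 and -0.01. TOP2A, which untangles sister DNA, had -0.48 with no overlap (adjusted p = 0.0533 from limma) and passed without replicate 3 of KM12SM or of SW620 (adjusted p = 0.0476 and 0.0466). MKI67, the Ki-67 antigen of the surface of mitotic chromosomes, had 0.52, also without overlap (adjusted p = 0.0820 from limma), and its value moved with single SW620 arrays. It was 0.30 (adjusted p = 0.261) without SW620 replicate 3 and 0.68 (adjusted p = 0.0333) without SW620 replicate 2.

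None of the 4 genes of anaphase onset was called by limma, and 0 of the 4 had an unadjusted p under 0.05. ESPL1 (separase), the protease that cuts cohesin, had log2 signals of 8.28, 8.31 and 8.13 in KM12SM and of 8.15, 8.36 and 8.34 in SW620. These overlapped, and the difference was -0.04 with a 95% confidence interval from -0.40 to 0.31. PTTG1 (securin), which holds separase back, had -0.14. CDC20, the activator of the anaphase-promoting complex, had 0.15, and UBE2C, the ubiquitin-conjugating enzyme that serves it, had -0.27.

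Within a complex or family the measured differences varied. In condensin I NCAPD2 had a log2 difference of -0.78, whereas each of the other 4 subunits lay between -0.07 and -0.01. In the passenger complex BIRC5 had -1.09, AURKB -0.22, INCENP -0.39 and CDCA8 0.39. The CDC25 phosphatases had -1.35 for CDC25B, -0.40 for CDC25A and 0.33 for CDC25C, and the kinesins ran from -0.86 for KIF18A and -0.72 for KIF20B to 0.46 for KIF11. These sets were picked after their values were seen, so they are descriptions with no test.

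The 58 genes varied from array to array in both lines, and in SW620 most of them were lowest on the same array. SW620 replicate 3 was the lowest of its line for 51 of the 58 genes (87.9%), against 45.4% of all probe sets, and its median deviation from the line mean was -0.22 for the 58 genes and -0.03 for all probe sets. SW620 replicate 2 was the highest of its line for 39 (67.2%), against 37.7% of all probe sets, with a median deviation of 0.15. In KM12SM the median deviations of the 58 genes were small, at 0.04, -0.05 and -0.003 for replicates 1, 2 and 3. Single genes moved there in both directions. KM12SM replicate 3 was the lowest of its line for 23 genes and the highest for 23 (39.7% each), against 34.8% and 40.3% of all probe sets. The SD within SW620 exceeded that within KM12SM for 33 of the 58 genes. The low level in SW620 replicate 3 was shared by S phase genes, of which 29 of 34 were lowest there, and by other mitosis genes, with 96 of 123. Of 6 control genes 5 were lowest in it as well, GAPDH among them (median deviation -0.14), whereas ACTB was highest in it. Of 14 genes of G1 control 7 were lowest in it. Without SW620 replicate 3 the median difference of the 58 genes was -0.23, 14 genes were lower in KM12SM and 0 were higher. Leaving it out also moved single genes that were not called, such as BUB1B to 0.06 and PLK4 to -0.0017. What set this array apart was not tested.

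**Figure D4:**
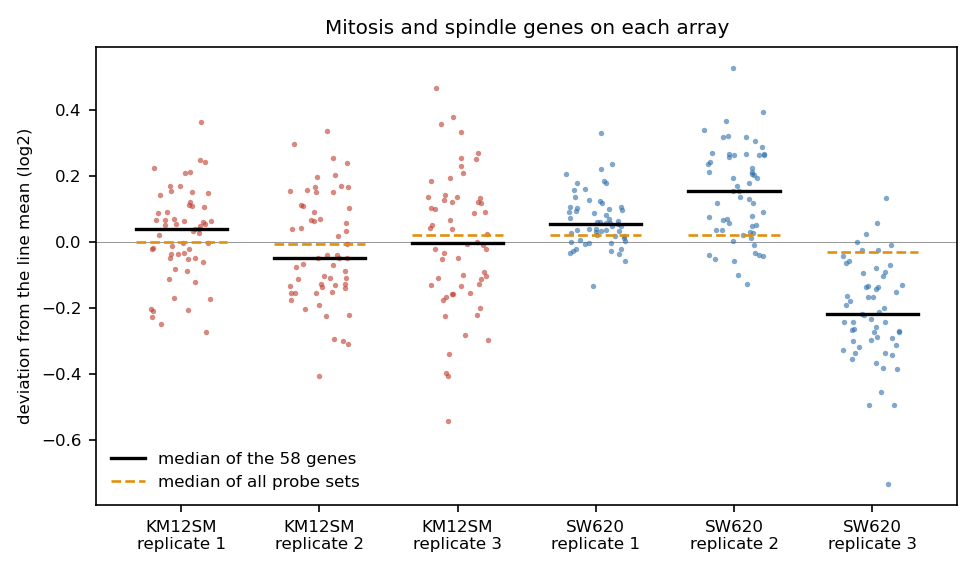
Deviation of each of the 58 genes (points) from the mean of its line on each array (vertical axis, log2), with the median of the 58 genes as a solid line and that of all probe sets as a dashed line. On SW620 replicate 3 most points lie below 0 and the median is -0.22, while the median of all probe sets is -0.03.

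The within-line SD had a median of 0.16 in KM12SM and 0.20 in SW620 for the 58 genes, against 0.17 and 0.19 for the 10481 probe sets at least as bright as the dimmest of them. The 58 genes averaged between 6.82 and 11.23 over the 6 arrays. The widest KM12SM gene was CDC25A (SD 0.47), with replicate 3 at 6.98 against 7.77 and 7.82.

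Other genes of mitosis, taken from 8 lists of complexes and regulators outside the 58, were called in both directions. Of 123 measured genes 15 were higher in KM12SM, 23 were lower and 85 were not called (30.9% called, against 25% of all probe sets), with a median difference of -0.05. Among 30 further kinetochore genes 9 (30%) were lower and 2 (6.67%) higher (median -0.30). Of all probe sets 12.4% were lower and 12.6% higher. TRIP13, the ATPase that resets MAD2, had -1.55, and the microtubule-binding SKA2 and SKA3, which sit in the same complex, had -1.38 and 1.20. Of 17 genes of the anaphase-promoting complex and its partners 5 (29.4%) were lower and 1 (5.88%) was higher (median -0.23). Its subunits ANAPC10, ANAPC11 and ANAPC13 had -0.95, -0.85 and -0.64. Of 12 CDK1 regulators 4 (33.3%) were lower and 1 (8.33%) was higher (median 0.12). BORA, which helps AURKA activate PLK1, had -1.59, the CDK-binding CKS2 had -1.07, and ENSA, an inhibitor of the phosphatase PP2A-B55 in mitosis, had 0.83.

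Among listed subunits and factors of complexes that regulate mitotic transcription all calls were higher in KM12SM. FOXM1, which is not on this list, was not called (difference -0.08). Of 13 genes of the DREAM and B-MYB complexes and related E2F factors 5 (38.5%) were higher in KM12SM and 0 lower in limma (median 0.33), against 12.6% of all probe sets higher. An unadjusted p under 0.05 was found for 7 of the 13 (53.8%), against 34.3% of all probe sets, and 1 of the 7 was E2F4, named after its values were seen, with a negative difference of -0.37. E2F8 had 1.33, E2F5 0.83 and MYBL2, which encodes B-MYB, 0.73. Of 13 cohesin genes 2 (15.4%) were higher and 1 (7.69%) lower (median 0.08). The cohesin acetyltransferases ESCO2 and ESCO1 had 1.51 and 0.89, and the centromere protector SGO2 had -0.56. Of 4 other condensin genes NCAPH2, of condensin II, was lower at -0.58. Of 23 spindle and cytokinesis genes 2 (8.7%) were higher and 2 (8.7%) lower (median -0.003). The kinase MELK had 0.77, the minus-end kinesin KIFC1 -0.75 and GTSE1 -0.58. Of 11 centriole and centrosome genes 2 (18.2%) were higher and 1 (9.09%) lower (median 0.10). The centriole assembly factor STIL had 0.77, CEP192, which recruits PLK4 and AURKA, -0.63 and NEDD1 0.52.

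Leaving out single arrays ended the calls of some of these named genes. Without KM12SM replicate 1 this held for STIL, CEP192, NEDD1 and GTSE1, without KM12SM replicate 2 for SGO2 and NEDD1, and without KM12SM replicate 3 for ANAPC13, SGO2 and NCAPH2. Without SW620 replicate 1 it held for ANAPC13, CEP192, NEDD1, SGO2 and NCAPH2, without SW620 replicate 2 for ANAPC13, SGO2, NCAPH2 and GTSE1, and without SW620 replicate 3 for STIL, NEDD1 and NCAPH2. The difference of STIL was 0.475 without SW620 replicate 3, and that of NCAPH2 was -0.36 without KM12SM replicate 3. Without KM12SM replicate 1 the 38 calls among the 123 genes became 25. NEDD1 was also lost with quantile normalisation and with arrays centred on their median (adjusted p = 0.0513 and 0.0736). Over all alternatives the highest adjusted p from limma was 0.0836 for ANAPC13, 0.0742 for STIL, 0.0636 for CEP192, 0.192 for NEDD1, 0.105 for SGO2, 0.146 for NCAPH2 and 0.0856 for GTSE1.

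Genes of the phases before mitosis were called in both directions. Of 34 S phase and DNA replication genes 7 were higher and 8 lower (44.1% called, against 25% of all probe sets, median -0.12). The cyclin gene CCNE1 had 1.39, the chromatin assembly gene CHAF1B 0.94 and GINS1, of the replicative helicase, -1.25. Of 14 genes of G1 control and arrest 4 were higher and 1 lower (35.7% called, median 0.08), with the D cyclin gene CCND2 at 2.72, RB1 at 1.70 and GADD45A, which is induced by DNA damage, at -1.39. The largest difference among the 58 mitosis and spindle genes, that of CDC25B, was smaller than that of CCND2, RB1, CCNE1 or GADD45A. It was also smaller than that of BORA, TRIP13, ESCO2 or SKA2, mitosis genes outside the 58. For CCNE1, GADD45A and SKA2 the gap was less than the standard error of CDC25B, 0.19. No test compared these lists.

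By position, the 58 genes lay on 19 chromosomes in the RefSeq annotation of GRCh38.p14, with up to 8 on a chromosome. Chromosome 20 held AURKA, CDC25B, TPX2 and UBE2C, with a median difference of -0.53, while the 498 named probe sets of that chromosome had a median of -0.04 and 19.5% of them were lower in KM12SM. On chromosome 1 the 8 genes had a median of -0.13, against 0.06 for its 1813 named probe sets. Of the 8 genes 0 were called, while 8.05% of those probe sets were lower and 16.3% higher. An unadjusted p under 0.05 in limma was found for 0 of the 8, against 34.3% of all probe sets. On chromosome 4 CENPE was higher, TACC3 was lower and the 6 genes had a median of 0.08. The chromosomes named so far followed no stated rule, and position was not tested. Chromosomes 11 and 17, with 2 and 3 of the genes, had medians of -0.62 and -0.48, against -0.05 and -0.04 for their named probe sets. Chromosomes 10 and 15, with 5 genes each, had medians of 0.07 and 0.10, against -0.01 and -0.02. Called genes lay on chromosomes 2, 3, 4, 10, 11, 12, 14, 17 and 20.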

How the data were processed

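RNA of KM12SM and SW620 was measured on Clariom S human arrays, with 3 arrays for each line. The deposited log2 values were made by the authors with the RMA algorithm (background correction, normalisation between arrays and summary per gene) in Transcriptome Analysis Console, of which no version was found. The values carry 2 decimals and no detection calls, and the number of arrays limits the precision. Probe sets took their gene from the platform annotation, with 17709 of 21448 having 1 symbol and 3739 unnamed. Groups followed the sample labels, and 0 columns of other samples were present.

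KM12SM minus SW620 was fitted with limma (version 3.58.1, R 4.3.3; lmFit and eBayes) over every probe set, and p-values were adjusted by the Benjamini-Hochberg method and called under 0.05. The limma fit was tested on simulated data. Tables were made with Python 3.11.15. The 58 genes and the other lists were chosen with earlier results of these data known. Values on each array are given for up to 7 called genes with the largest difference in each direction and for the gene nearest the median of each role group without one. Of each other list, up to 3 called genes with the largest difference are named. Alternatives were quantile normalisation, centring, leaving out probe sets under the 25th percentile of mean signal, a replicate block, trend and robust options, array weights, averaging the probe sets of a gene, and leaving out arrays.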

Additional observations from a re-analysis of the deposited data

How the results depend on the processing

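Of the 13 called genes 7 kept their call under each of 14 alternatives (CDC25B, BIRC5, CDK1, DLGAP5, KIF18A, NCAPD2 and CENPA). The 13 calls became 31 with array weights, when 47.0% of all probe sets were called, and 9 to 14 on leaving out single arrays, and 20 without replicate 3 of both lines. Of the 45 genes not called 18 were called under at least 1 alternative. The 11 lower calls became 24 with array weights and 8 to 14 on leaving out single arrays, and 18 without replicate 3 of both lines. The 2 higher calls became 4 with quantile normalisation, 5 with trend and robust options, 7 with array weights and 0 to 3 on leaving out single arrays. The median difference stayed negative, between -0.24 and -0.057. The arrays did not overlap for 23 genes after centring and for 25 after quantile normalisation, against 22. The 38 calls among other mitosis genes became 69 with array weights and 25 to 41 on leaving out single arrays, and 46 without replicate 3 of both lines; these alternatives were added after seeing the data.

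The sign turned for 17 genes, none of them called. NCAPG was 0.0053 with quantile normalisation and HMMR -0.0167 after centring. With array weights PLK1 was -0.0359, SPC25 -0.0675, ASPM 0.0018, HMMR -0.0177 and ESPL1 0.0922. On leaving out single arrays FOXM1 ranged from -0.22 to 0.05, PLK1 from -0.0133 to 0.1317, PLK4 from -0.0017 to 0.3133, BUB3 from -0.005 to 0.12 and SPC25 from -0.0767 to 0.3033. SGO1 ranged from -0.155 to 0.07, KIF23 from -0.2233 to 0.1367, ASPM from -0.195 to 0.09, HMMR from -0.105 to 0.16 and PRC1 from -0.0767 to 0.2533. SMC2 ranged from -0.2533 to 0.1267, SMC4 from -0.2417 to 0.0583, NCAPG from -0.1767 to 0.1183, NCAPH from -0.205 to 0.0633 and ESPL1 from -0.11 to 0.0117. Without replicate 3 of both lines BUB1B was -0.01, KIF15 -0.08, SPC25 -0.235, HMMR -0.155, PRC1 -0.11 and ESPL1 0.04. The cause was not tested.

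With the replicate number as a block 13 genes were called, 11 lower and 2 higher, and 26.5% of all probe sets. Deviations of same-numbered arrays correlated at 0.058, 0.095 and 0.149, and those of differently numbered arrays at -0.142 to 0.1. Of 6 arrays 4 correlated best with their own number. The study's methods state no pairing, so the main fit has no block, and whether the numbers mark pairs was not tested.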
